A study of Mus musculus with 8 samples.

Results

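The creatine and adenylate kinase energy shuttle was followed through 9 genes, chosen by exact match of their symbols in a table of 54429 gene rows: the creatine kinases Ckm, Ckmt2, Ckmt1 and Ckb, the adenylate kinases Ak1, Ak3 and Ak4, the creatine transporter gene Slc6a8 and the creatine synthesis gene Gatm. Each symbol was found in 1 row. Of the 9, 8 had at least 1 RPKM (reads per kilobase of gene, scaled to the reads of the library) in at least 4 libraries and were tested, among 16385 genes tested in all. Ckmt1 did not reach that level.

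RNA was sequenced from both ventricles of C57BL/6 mice at postnatal day 35, all with floxed alleles of Esrra and Esrrg, the genes of estrogen-related receptors alpha and gamma. On postnatal day 0 to 1 the mice had been injected with an adeno-associated virus. In the 4 libraries labelled AAV-Cre the virus carried Cre recombinase under the cardiac troponin T promoter (cTnT), which is active in cardiomyocytes and not in most other cells of the heart. In the 4 libraries labelled AAV-Luc it carried luciferase, so that floxed alleles and viral injection were common to both groups. The comparison asks how expression after birth changes when both receptors are targeted in heart muscle. No label links a library to an animal, so the spread behind the p-values may be partly technical.

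In these libraries Esrrg went against its label, at 217.9 ± 17.7 RPKM in AAV-Cre and 112.7 ± 5.51 RPKM in AAV-Luc (SD, n = 4 each), and Esrra did not pass (39.1 ± 4.66 against 45.1 ± 3.66 RPKM, limma adjusted p = 0.0705). A value for a gene as a whole does not show whether floxed exons were lost, so each group goes by its label here. The steps of the lowest RPKM values implied library totals of 48284000 to 61256000 reads. The median log2 fold change of all genes tested was 0.41, so a gene at 0 lay below most others. Values after centring each library on its median therefore stand beside those as deposited. Mitochondrial genome rows made up 24.0 to 25.6% of all RPKM in AAV-Cre and 35.9 to 40.3% in AAV-Luc. RPKM is a share of a library, and in bulk tissue fewer cells of a type and less RNA per cell cannot be told apart. All 8 cardiomyocyte markers, such as Myh6 and Tnnt2, were abundant in every library, with sums of 21321 to 25160 RPKM in AAV-Cre and 25737 to 29503 in AAV-Luc. Library numbers are names only, in column order.

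Creatine kinases move a phosphate group between ATP and creatine, so that phosphocreatine made at mitochondria can regenerate ATP at myofibrils and ion pumps. Adenylate kinases interconvert ATP, ADP and AMP, which recovers ATP from ADP and raises AMP when energy is short. Heart muscle relies on both relays to link oxidative phosphorylation to contraction, and the estrogen-related receptors are transcription factors of mitochondrial and muscle energy genes.

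Promoter sequences are shown for Ckmt2 and Ak1, which fell, for Ckm, which fell less, and for Ckb, which rose as deposited only. They come from RefSeq (GRCm38.p6, the assembly of mm10), run from 250 bases before to 50 bases after a start site, and are written 5′ to 3′ on the gene's strand. Capitals mark 3 motifs searched on both strands: AAGGTCA, the half-site that estrogen-related receptors and other nuclear receptors bind, the E-box CANNTG of muscle regulatory factors, and the TATA box TATAAA.
Ckmt2 (chr13:91876836-91877135, minus strand): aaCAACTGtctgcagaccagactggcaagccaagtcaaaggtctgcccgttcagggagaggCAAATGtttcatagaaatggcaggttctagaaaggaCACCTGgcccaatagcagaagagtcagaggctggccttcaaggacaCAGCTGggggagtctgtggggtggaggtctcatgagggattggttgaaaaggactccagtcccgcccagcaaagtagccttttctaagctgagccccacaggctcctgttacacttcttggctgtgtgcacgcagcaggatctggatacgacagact
Ak1, start site 3 of 4 (chr2:32628140-32628439, plus strand): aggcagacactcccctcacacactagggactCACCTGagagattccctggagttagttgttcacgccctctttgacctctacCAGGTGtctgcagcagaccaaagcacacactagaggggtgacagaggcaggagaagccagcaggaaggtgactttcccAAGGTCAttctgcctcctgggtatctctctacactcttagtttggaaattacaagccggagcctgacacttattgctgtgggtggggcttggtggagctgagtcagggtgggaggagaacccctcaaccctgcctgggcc
Ckm (chr7:19410844-19411143, plus strand): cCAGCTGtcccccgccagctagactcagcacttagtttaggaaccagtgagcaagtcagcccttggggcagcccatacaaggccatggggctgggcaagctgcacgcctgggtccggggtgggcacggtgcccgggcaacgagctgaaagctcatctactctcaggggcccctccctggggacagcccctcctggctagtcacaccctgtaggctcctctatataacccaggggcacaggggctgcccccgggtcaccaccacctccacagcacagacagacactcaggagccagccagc
Ckb (chr12:111672289-111672588, minus strand): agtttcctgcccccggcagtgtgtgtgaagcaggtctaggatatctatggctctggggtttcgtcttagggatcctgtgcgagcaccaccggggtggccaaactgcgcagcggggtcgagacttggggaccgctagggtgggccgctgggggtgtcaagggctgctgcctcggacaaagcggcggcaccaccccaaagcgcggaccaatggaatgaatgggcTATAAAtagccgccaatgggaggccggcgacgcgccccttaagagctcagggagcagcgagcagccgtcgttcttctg
Of the 9 genes, 8 had promoters in the RefSeq table, with 15 start sites, and Slc6a8 had none. The 15 windows are not separate sequences. Those of Ak4 that begin at 101419039, 101419062 and 101419071 on chromosome 4 overlap for most of their length. AAGGTCA was present at 2 of the 15, against 4.72% of all 32851 promoters of the same length. Among the 4 Ak1 start sites, only the 1 printed here had it, on the plus strand, beginning 90 bases before the start site. The other copy was in 1 promoter of Ckmt1. CANNTG was present at 10 of the 15, against 72.3% of all promoters, with 4 copies in the Ckmt2 promoter and 1 in that of Ckm. TATAAA was present at 3 of the 15, against 13.6%, and began 28 bases before the start site of Ckb. These matches describe letters in a window of 300 bases and say nothing about binding.

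All 8 tested genes passed an adjusted p of 0.05 as deposited, 4 higher and 4 lower in AAV-Cre, where 73.3% of all genes tested passed, 64.4% higher and 8.87% lower. Their median log2 fold change was 0.18, against 0.41 for all genes tested. After centring, 2 were higher and 4 lower, against 21.8% and 24.1% of all genes tested, with a median of -0.22 against about 0. The fallers were Ckmt2, Ak1, Ckm and Ak3 on both scales. Slc6a8 and Ak4 were higher on both scales, and Ckb and Gatm only as deposited. The AAV-Cre and AAV-Luc values did not overlap in 6 of the 8, namely Ckmt2, Ak1, Ak3, Ckb, Ak4 and Slc6a8, where 66.1% of all genes tested did not overlap, with AAV-Cre above in 58.4% and below in 7.67%. AAV-Cre was above for Ckb, Ak4 and Slc6a8 and below for Ckmt2, Ak1 and Ak3. Of the called genes, Slc6a8 was higher by at least 2-fold and Ckmt2 and Ak1 lower by at least 2-fold, against 8.87% and 1.79% of all genes tested.

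**Figure D1:**
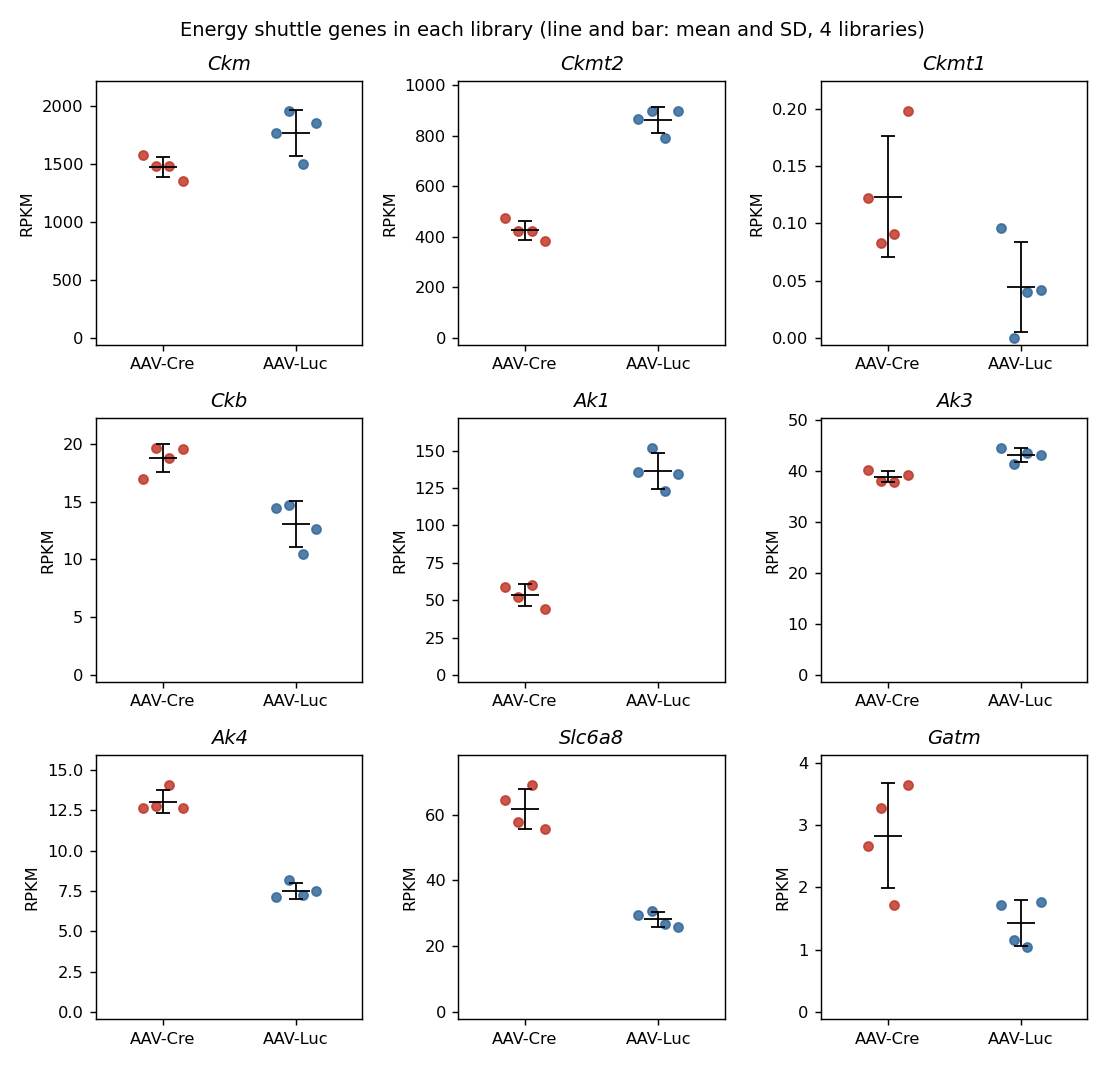
RPKM of the 9 genes (y axis) in each of the 4 libraries labelled AAV-Cre (red) and AAV-Luc (blue), with the mean and SD of each group. The groups are separate for Ckmt2, Ak1, Ak3, Ckb, Ak4 and Slc6a8, overlap for Ckm and Gatm, and Ckmt1 stays under 0.2 RPKM throughout.

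Ckm, the muscle creatine kinase of the cytosol and the sarcomere M-line, was the most abundant of the 9 genes, on chromosome 7 from 19404776 to 19422841 (mm10, plus strand). It measured 1571, 1482, 1479 and 1352 RPKM in AAV-Cre libraries 1 to 4, against 1766, 1957, 1495 and 1849 RPKM in AAV-Luc libraries 1 to 4. AAV-Luc library 3 was low and lay within the range of AAV-Cre, so the groups overlapped. The log2 fold change came to -0.26 (SE 0.09, 95% interval -0.47 to -0.05, limma adjusted p = 0.0296), and the two-sided exact permutation test gave p = 0.0571. The call ended in 6 of the 8 fits that left out 1 library, all but those without AAV-Cre library 1 or AAV-Luc library 3 (limma adjusted p = 0.0517 to 0.0764), and with no filter on low values (adjusted p = 0.114). With centring, the log2 fold change was -0.67 (limma adjusted p = 0.00018). Among all gene rows Ckm ranked 52 by mean RPKM in AAV-Cre and 46 in AAV-Luc.

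Ckmt2, the sarcomeric creatine kinase of the mitochondrial intermembrane space, had a larger fall. It lies on chromosome 13 from 91853387 to 91876885 (minus strand). It measured 473.9, 422.3, 423.4 and 383.0 RPKM in AAV-Cre, against 866.6, 899.3, 789.6 and 896.0 RPKM in AAV-Luc. The highest AAV-Cre library was far under the lowest AAV-Luc library. The ratio of means was 0.493, with a log2 fold change of -1.02 (SE 0.08, limma adjusted p = 6.18e-06; exact permutation p = 0.0286, the smallest that the 70 arrangements of 4 and 4 allow). A lower fold change was found in 1.70% of all genes tested, and its rank by mean RPKM was 170 in AAV-Cre and 79 in AAV-Luc. Centring gave -1.43 (limma adjusted p = 1.2e-06), and leaving out any 1 library kept the call (adjusted p at most 5.1e-05).

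The rows of Ckm and Ckmt2 are not fully separate from antisense genes. A930016O22Rik, on the opposite strand, shares 15.5% of the exon bases of Ckm, and its RPKM was 0.126 to 0.133 of that of Ckm in all 8 libraries. 1700119I11Rik shares 5.65% of the exon bases of Ckmt2 and measured 0.628 to 0.667 of Ckmt2. The use of strand is not given in the sources used here, so reads of each gene and its antisense partner cannot be told apart.

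Ckb, the brain-type creatine kinase of the cytosol, also found in smooth muscle and non-muscle cells, moved the other way as deposited. It lies on chromosome 12 from 111669361 to 111672338 (minus strand). It measured 17.0, 19.7, 18.8 and 19.6 RPKM in AAV-Cre, against 14.5, 14.8, 10.5 and 12.6 RPKM in AAV-Luc. Every AAV-Cre library was above every AAV-Luc library. The log2 fold change came to 0.52 (SE 0.11, limma adjusted p = 0.00192; exact permutation p = 0.0286), and 62.3% of all genes tested had a lower one. The call ended with centring (log2 fold change 0.11, adjusted p = 0.339) and with quantile normalization (0.12, adjusted p = 0.286). Of its transcript 50-mers, 9.98% also occur in other genes, mostly the pseudogene Gm12892, which measured 0.449 ± 0.148 against 0.367 ± 0.0984 RPKM.

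Markers of other cells moved in the same libraries as Ckb, and are counted here as deposited, where 64.4% of all genes tested were higher and 8.87% lower, and then after centring, where 21.8% were higher and 24.1% lower. All 8 fibroblast markers rose, and 6 after centring, with sums of 1520 to 2187 against 780 to 843 RPKM. All 8 macrophage markers rose on both scales, with sums of 334 to 444 against 166 to 179 RPKM. Of 8 smooth muscle and pericyte markers 5 rose and 2 fell, and 4 rose and 3 fell after centring. Their sums were 1494 to 1857 against 317 to 429 RPKM, to which Acta2 gave a mean of 1359 RPKM in AAV-Cre and 145.5 RPKM in AAV-Luc. As deposited, the ratios of means were 2.12 for Myh11, 9.34 for Acta2, 1.92 for Tagln and 22.6 for Cnn1. They were 0.836 for Rgs5, 0.963 for Pdgfrb, 0.701 for Kcnj8 and 1.26 for Abcc9. Of 8 endothelial markers 1 rose and none fell, and none rose and 6 fell after centring (sums of 381 to 430 against 316 to 466 RPKM). Of 8 cardiomyocyte markers 2 rose and 4 fell, and none rose and 6 fell after centring. All 5 tested atrial markers rose on both scales, with sums of 4678 to 10258 against 105 to 227 RPKM, most of it from Nppa. All 3 tested skeletal markers rose, and 2 after centring (13.6 to 27.5 against 2.61 to 4.38 RPKM). Both tested neural or glial markers rose, and 1 after centring (12.2 to 17.3 against 5.33 to 6.49 RPKM). Of 5 tested erythroid markers none was called as deposited and 3 fell after centring (3549 to 5718 against 3732 to 5969 RPKM). No adipocyte marker was tested (0.745 to 1.59 against 0.832 to 3.1 RPKM). No listed marker was at 0 in all libraries, but the atrial marker Bmp10, 1 of 6 erythroid, 3 of 6 neural or glial, 5 of 6 adipocyte (all but Adipoq) and 5 of 8 skeletal markers stayed under 1 RPKM in every library. The part of other cell types in the values of the 9 genes was not tested.

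Ckmt1, the ubiquitous mitochondrial creatine kinase, was close to absent in these ventricles. It measured 0.122, 0.0825, 0.0904 and 0.199 RPKM in AAV-Cre, against 0.0962, 0, 0.0399 and 0.0416 RPKM in AAV-Luc. The groups overlapped (exact permutation p = 0.0857), and at this level the values rest on few reads. Ckmt2 was therefore nearly all of the mitochondrial creatine kinase RNA in both groups.

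Within the summed creatine kinase RPKM, which compares genes per length, the muscle forms shifted towards Ckm. The sum was 1916 ± 126 RPKM in AAV-Cre and 2643 ± 249 RPKM in AAV-Luc (SD, n = 4 each). Ckm was 76.8% ± 0.414 of it in AAV-Cre and 66.8% ± 1.25 in AAV-Luc. Ckmt2 was 22.2% ± 0.528 in AAV-Cre and 32.7% ± 1.27 in AAV-Luc. Ckb remained a small part, at 0.986% ± 0.122 in AAV-Cre and 0.493% ± 0.0447 in AAV-Luc. Ranges of these 3 shares did not overlap between the groups.

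Ak1, the main adenylate kinase of the muscle cytosol, had the largest fall of the 8 tested genes. It lies on chromosome 2 from 32621758 to 32635058 (plus strand), and none of its transcript 50-mers occur in another gene. It measured 58.7, 52.4, 59.9 and 43.8 RPKM in AAV-Cre, against 136.0, 152.0, 123.1 and 134.7 RPKM in AAV-Luc. AAV-Cre library 4 was the lowest and AAV-Luc library 2 the highest, with a wide gap between the groups. The ratio of means was 0.394 and the log2 fold change -1.34 (SE 0.11, limma adjusted p = 6.95e-06; exact permutation p = 0.0286). A lower fold change was found in 104 of 16385 genes tested (0.635%). Centring gave -1.75 (limma adjusted p = 1.65e-06), and the lowest and highest values over all alternatives were -1.75 and -1.25.

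Ak3 and Ak4 encode adenylate kinases of the mitochondrial matrix, and they went in opposite directions as deposited. Ak3, which uses GTP to phosphorylate AMP, lies on chromosome 19 from 29020833 to 29047961 (minus strand). It measured 40.3, 38.2, 37.9 and 39.3 RPKM in AAV-Cre, against 44.6, 41.4, 43.6 and 43.2 RPKM in AAV-Luc. The groups did not overlap, but the difference was small, with a ratio of means of 0.901. Its log2 fold change came to -0.15 (SE 0.05, limma adjusted p = 0.0292; exact permutation p = 0.0286), and -0.56 after centring (adjusted p = 5.69e-05). The call as deposited ended without any 1 of AAV-Cre libraries 2 and 3 and AAV-Luc libraries 1 and 4 (limma adjusted p = 0.0614 to 0.0775). Ak3 shares 13.8% of its exon bases with Cdc37l1 on the opposite strand, at 52.0 ± 2.07 against 48.7 ± 3.32 RPKM, so its row is uncertain.

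Ak4, a matrix protein of this family with little kinase activity that is known as a stress-responsive gene, lies on chromosome 4 from 101419277 to 101466995 (plus strand). It measured 12.7, 12.7, 14.1 and 12.6 RPKM in AAV-Cre, against 7.10, 8.2, 7.23 and 7.47 RPKM in AAV-Luc. AAV-Cre library 3 was high within its group, and the groups were well apart. The log2 fold change came to 0.76 (SE 0.07, limma adjusted p = 1.6e-05; exact permutation p = 0.0286), and 0.35 after centring (adjusted p = 0.00283). Of its transcript 50-mers, 10.2% also occur in the pseudogene Ak3l2-ps, which measured 0.533 ± 0.176 against 0.125 ± 0.0316 RPKM.

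The makeup of the adenylate kinase RNA changed accordingly. The sum of Ak1, Ak3 and Ak4 was 105.7 ± 7.73 RPKM in AAV-Cre and 187.2 ± 11.4 RPKM in AAV-Luc. Ak1 was 50.6% ± 3.47 of it in AAV-Cre and 72.8% ± 1.92 in AAV-Luc. Ak3 was 37.0% ± 2.99 against 23.2% ± 1.91, and Ak4 12.4% ± 0.778 against 4.01% ± 0.161. The summed creatine kinases were 18.1 ± 0.66 times the summed adenylate kinases in AAV-Cre and 14.1 ± 0.695 times in AAV-Luc. Relative to AAV-Luc, the AAV-Cre mean was 0.565 for the adenylate kinase sum and 0.725 for the creatine kinase sum.

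Slc6a8, which carries creatine into the cell across the plasma membrane, had the largest rise of the 8 tested genes. It lies on chromosome X from 73673150 to 73682502 (plus strand). It measured 64.6, 57.8, 69.0 and 55.7 RPKM in AAV-Cre, against 29.4, 30.7, 26.7 and 25.9 RPKM in AAV-Luc. The lowest AAV-Cre library was well above the highest AAV-Luc library. The ratio of means was 2.19 and the log2 fold change 1.12 (SE 0.09, limma adjusted p = 6.2e-06; exact permutation p = 0.0286). After centring it was 0.71 (limma adjusted p = 0.000123), and 93.6% of all genes tested had a lower fold change as deposited. In each AAV-Cre library Slc6a8 exceeded Ak1, while in each AAV-Luc library Ak1 was several times Slc6a8.

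Gatm encodes the amidinotransferase of the first step of creatine synthesis, which is known mainly from kidney and pancreas. It lies on chromosome 2 from 122594467 to 122611303 (minus strand). It was low, at 2.66, 3.27, 1.72 and 3.64 RPKM in AAV-Cre, against 1.72, 1.16, 1.05 and 1.76 RPKM in AAV-Luc. AAV-Cre library 3 lay within the AAV-Luc range. The log2 fold change came to 0.77 (SE 0.21, limma adjusted p = 0.00748; exact permutation p = 0.0857). After centring it was 0.36 (adjusted p = 0.158) and after quantile normalization 0.35 (adjusted p = 0.162), where the call ended.

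**Figure D2:**
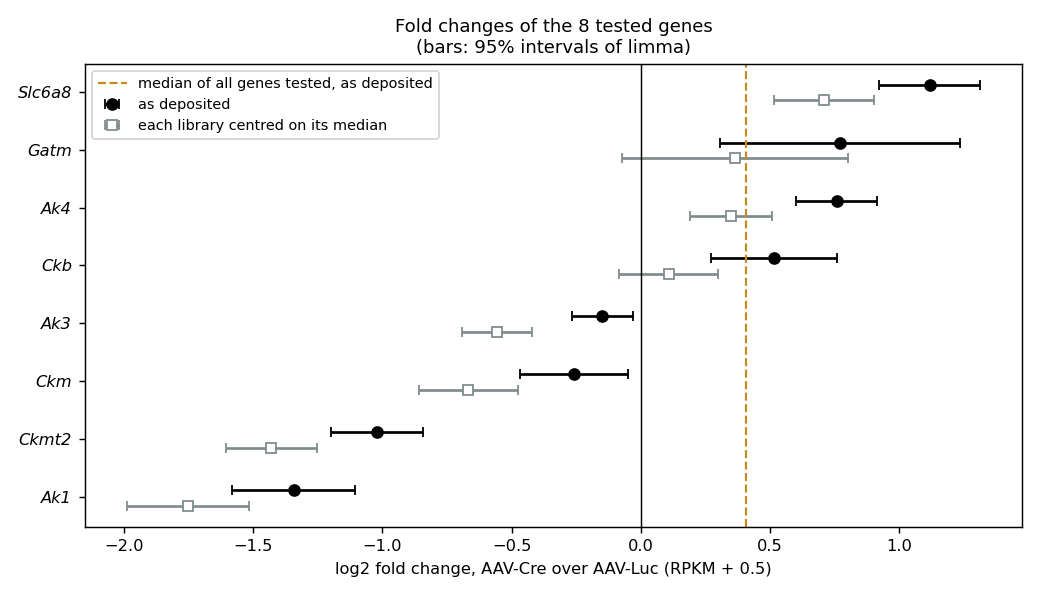
Log2 fold changes of the 8 tested genes, AAV-Cre over AAV-Luc, as deposited (black circles) and after centring each library on its median (open squares), with 95% intervals of limma. The dashed line is the median of all genes tested as deposited (0.41). Ak1 and Ckmt2 lie farthest to the left and Slc6a8 farthest to the right on both scales.

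The order of the 9 genes by RPKM differed between the groups in the place of Slc6a8. In AAV-Cre it ran Ckm, Ckmt2, Slc6a8, Ak1, Ak3, Ckb, Ak4, Gatm and Ckmt1, and in AAV-Luc Ckm, Ckmt2, Ak1, Ak3, Slc6a8, Ckb, Ak4, Gatm and Ckmt1. Slc6a8 and Ak1 overlapped in AAV-Cre, at 55.7 to 69.0 and 43.8 to 59.9 RPKM, and no other neighbours in either order did. The spread between libraries was smallest for Ak3, with a coefficient of variation of 2.81% in AAV-Cre and 3.11% in AAV-Luc. For the other genes above 5 RPKM it was 5.38 to 13.7% in AAV-Cre and 5.91 to 15.2% in AAV-Luc. For Gatm it was 29.7% in AAV-Cre and 26.0% in AAV-Luc.

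Ratios of 2 genes within a library do not depend on the library total, so they were set beside the fold changes. A ratio shows unequal change, not which gene changed. For each of the 6 ratios examined, the groups did not overlap. The two-sided exact permutation p and its Benjamini-Hochberg adjusted value over the 6 were both 0.0286, the smallest that 4 against 4 can give. For Ak4 to Ak1 and Ak4 to Ak3 this restates the single genes. Ak4 was above, and Ak1 and Ak3 below, without overlap.

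Ckmt2 was 30.2, 28.5, 28.6 and 28.3% of Ckm in AAV-Cre, against 49.1, 45.9, 52.8 and 48.4% in AAV-Luc, a log2 difference of -0.76. The AAV-Cre libraries lay close together and far under all AAV-Luc libraries. Ak1 was 3.64% ± 0.341 of Ckm in AAV-Cre and 7.75% ± 0.389 in AAV-Luc, a log2 difference of -1.08. Ckb was 1.08, 1.33, 1.27 and 1.45% of Ckm in AAV-Cre, against 0.82, 0.754, 0.699 and 0.682% in AAV-Luc, a log2 difference of 0.77. This rise of Ckb relative to Ckm held for every AAV-Cre library against every AAV-Luc library, although Ckb itself was not called after centring.

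Ak4 was 21.6, 24.3, 23.5 and 28.9% of Ak1 in AAV-Cre, against 5.22, 5.39, 5.88 and 5.55% in AAV-Luc. The log2 difference of 2.10 was the largest of the 6. Ak4 was 33.5% ± 2.54 of Ak3 in AAV-Cre and 17.4% ± 1.7 in AAV-Luc (log2 difference 0.91). The ratio of Ckmt1 to Ckmt2 had a log2 difference of 1.22, but with Ckmt1 under 0.2 RPKM it rests on the pseudocount and the fall of Ckmt2, and was 1.66 with a pseudocount of 0.1.

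**Figure D3:**
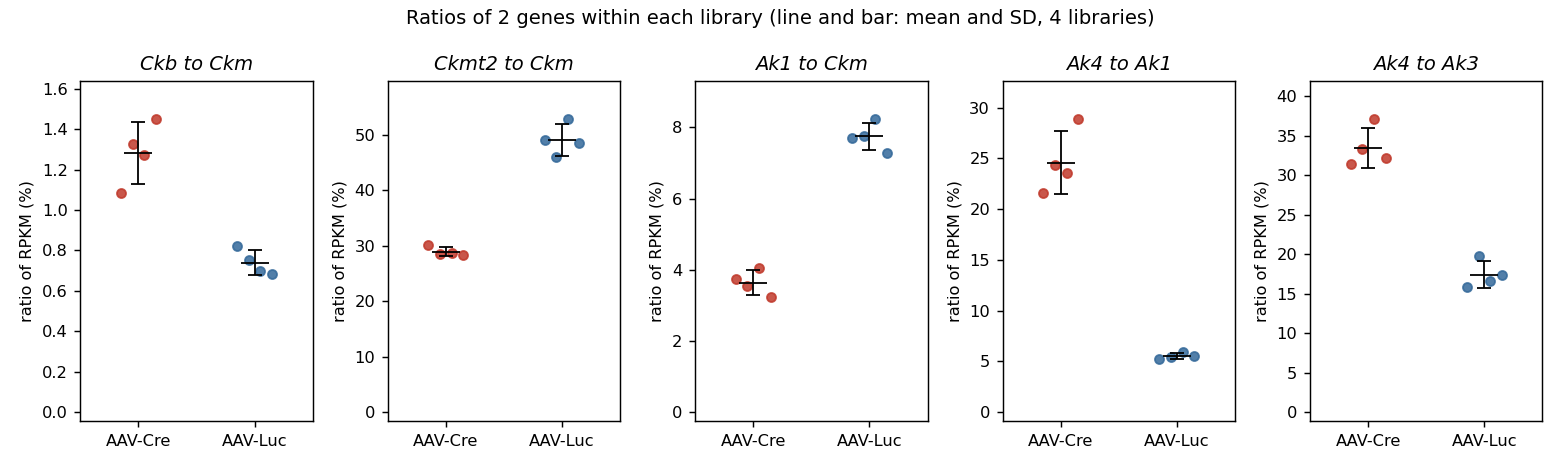
Ratios of RPKM of 2 genes within each library, in percent (y axis), for the 4 libraries labelled AAV-Cre (red) and AAV-Luc (blue), with the mean and SD. The groups are separate in each panel, with Ckb to Ckm, Ak4 to Ak1 and Ak4 to Ak3 higher and Ckmt2 to Ckm and Ak1 to Ckm lower in AAV-Cre.

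The genes whose values over the 8 libraries were most like those of 4 members were found by the root mean square difference of log2 values, each centred on its own mean, among 8013 candidate genes averaging 5 RPKM or more, without unnamed gene models and pseudogenes. This distance takes in the difference between the groups. For Ak1 they included Mdh2 and Ndufa8, at distances of 0.0515 and 0.0556. For Ckmt2 they were Khdrbs3, Oxct1 and Pdhb, at distances of 0.0411, 0.0434 and 0.0454. For Ckm they were Akap1, Mrpl44 and Wipi1, at distances of 0.047 to 0.0498. For Ckb they were Drg2, Glis2 and Mfge8, at distances of 0.0545 to 0.0597.

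The rest of the energy relay was followed through 45 other genes in 6 groups, of which 39 were tested. As deposited 18 rose and 12 fell, and after centring 7 rose and 19 fell, with medians of 0.17 and -0.24. All genes tested had 64.4% higher and 8.87% lower as deposited, 21.8% and 24.1% after centring, and a median of 0.41 as deposited, and the counts of each group are read against these shares. In creatine metabolism, Gamt, which methylates guanidinoacetate to creatine and so completes the synthesis that Gatm begins, measured 10.5, 13.2, 13.5 and 9.02 RPKM in AAV-Cre, against 3.25, 2.48, 1.46 and 2.37 RPKM in AAV-Luc. Every AAV-Cre library was above every AAV-Luc library. Its log2 fold change came to 2.08 (SE 0.20, limma adjusted p = 1.79e-05), and 1.67 after centring. The monocarboxylate transporter family gene Slc16a12 did not pass as deposited, at 0.969 ± 0.0665 against 1.03 ± 0.0514 RPKM. After centring Slc16a12 was lower (log2 fold change -0.47, limma adjusted p = 0.00275).

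All 5 called genes of ATP, ADP and phosphate exchange fell, of 6 tested, and all 6 were lower after centring. This group passes phosphate and adenine nucleotides between the matrix, where ATP is made, and the space where Ckmt2 works. Slc25a4, the ADP/ATP carrier of heart and skeletal muscle, measured 856.0 ± 28.7 against 1319 ± 101 RPKM (log2 fold change -0.62). The phosphate carrier Slc25a3 measured 302.7 ± 39.3 against 568.5 ± 32.6 RPKM (log2 fold change -0.92). The outer membrane channel Vdac1 and the second ADP/ATP carrier Slc25a5 had log2 fold changes of -0.62 and -0.46. The falls of Ckmt2 and Ak1, at -1.02 and -1.34, were larger in size than each of these.

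Of 10 tested adenylate and other nucleotide kinases outside the 9 genes, 7 rose and none fell as deposited, near the 64.4% higher among all genes tested, and 2 rose and 3 fell after centring. Nme3, a nucleoside diphosphate kinase, measured 37.2 ± 2.33 against 9.82 ± 1.31 RPKM (log2 fold change 1.88), and Ak6, Nme4 and Nme1 had log2 fold changes of 0.83, 0.71 and 0.47. The calls of Nme4 and Nme1 ended after centring (limma adjusted p = 0.185 and 0.578).

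AMP is the product of the adenylate kinase reaction in energy shortage, and genes of its breakdown, salvage and sensing moved both ways. Of 10 tested genes of AMP breakdown and salvage, 3 rose and 4 fell as deposited, and 1 rose and 5 fell after centring. Adssl1, the muscle form of adenylosuccinate synthase, measured 104.0 ± 8.22 against 36.9 ± 2.96 RPKM (log2 fold change 1.48). The AMP deaminase gene Ampd3 measured 9.07 ± 1.04 against 13.6 ± 1.72 RPKM (log2 fold change -0.56), while Ampd2 and the adenosine deaminase Ada had log2 fold changes of 0.57 and 0.62. Ada, 1 of the 3 that rose, was low, at 1.17 to 1.67 RPKM in AAV-Cre and 0.624 to 0.862 RPKM in AAV-Luc. It reached the level for testing only through its AAV-Cre values, so its count among the rises carries little weight. The calls of Ampd2 and Ada ended after centring (limma adjusted p = 0.316 and 0.15). In AMP-activated kinase, the AMP sensor, 5 of 7 subunit genes rose and 1 fell, and 2 rose and 2 fell after centring, close to the shares among all genes tested. The beta subunits diverged, with Prkab2 at 50.6 ± 3.52 against 20.3 ± 1.2 RPKM and Prkab1 at 8.0 ± 0.463 against 10.4 ± 0.752 RPKM. Prkag2 and Prkaa2 had log2 fold changes of 0.72 and 0.56, and the call of Prkaa2 ended after centring (limma adjusted p = 0.198).

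The ATP-sensitive potassium channel, which opens when ATP falls, had 2 genes higher and 2 lower as deposited, and 1 higher and 2 lower after centring. The pore gene Kcnj11 measured 114.7 ± 19.4 against 166.3 ± 9.74 RPKM (log2 fold change -0.55), and Kcnj8 had a log2 fold change of -0.48. The sulfonylurea receptor gene Abcc8 measured 22.4 ± 3.33 against 13.4 ± 1.57 RPKM (log2 fold change 0.71), and Abcc9 had a log2 fold change of 0.32 and did not pass after centring (limma adjusted p = 0.493). Kcnj8 and Abcc9 are also counted above among the smooth muscle and pericyte markers.

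**Figure D4:**
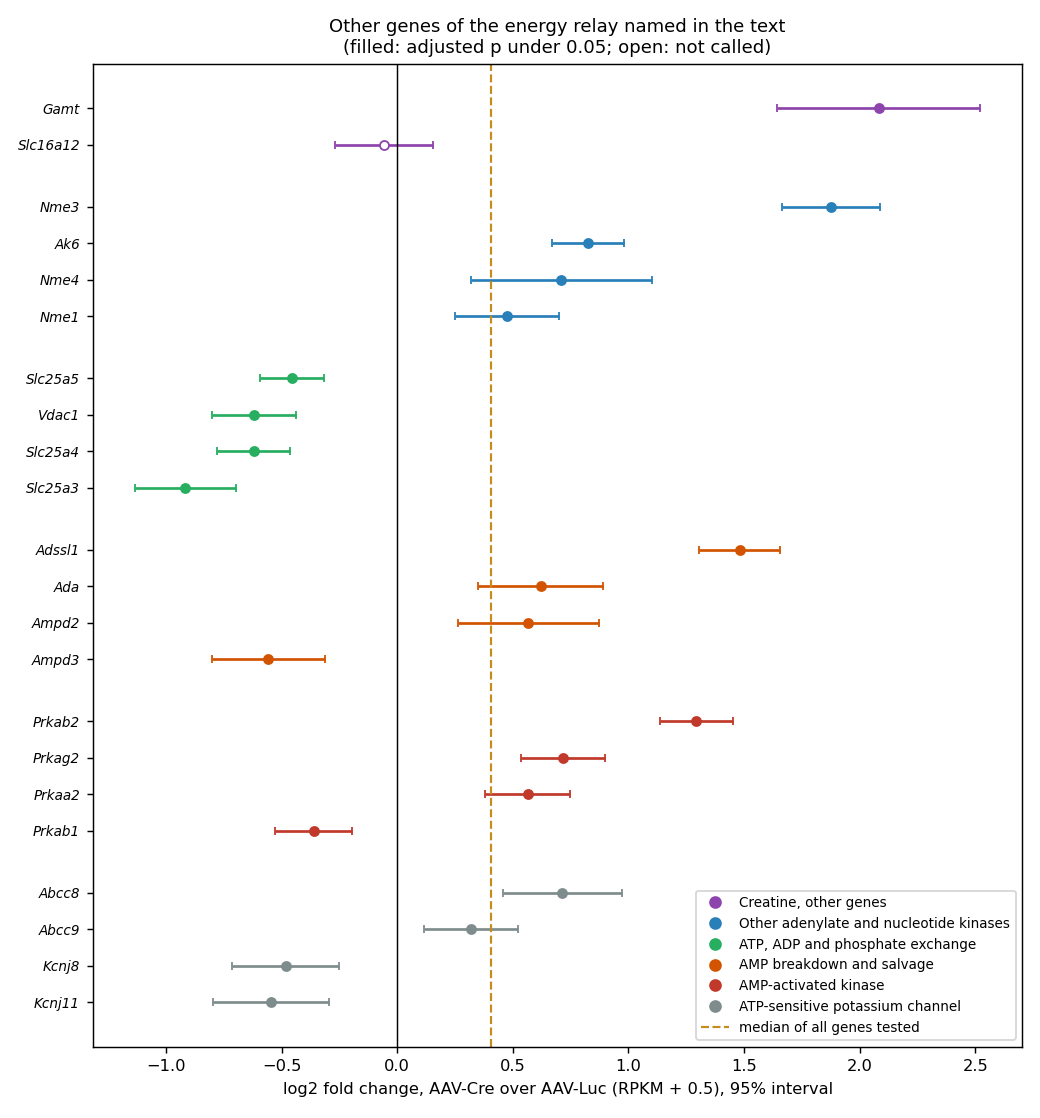
Log2 fold changes, AAV-Cre over AAV-Luc, of the other energy relay genes named in the text, by group, with 95% intervals of limma. Filled points passed an adjusted p of 0.05, and the dashed line is the median of all genes tested (0.41). Gamt and Nme3 lie farthest to the right and Slc25a3 farthest to the left.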

How the data were processed

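Paired-end RNA sequencing of poly(A)-enriched RNA from ventricles gave 8 libraries, 4 for each label. The authors deposited RPKM per gene. The submitters' processing notes name STAR, edgeR, Partek 6.6, FastQC 0.11 and the mm10 build. What each did is not given in the sources used here, nor is the annotation, the length taken for each gene or whether strand was used. The 8 columns name a group and no sample, so each stands for an unnumbered replicate. The deposited averages were not used.

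Genes that reached 1 RPKM in 4 or more libraries were fitted with limma 3.58.1 (R 4.3.3, trend) on log2(RPKM + 0.5), which understates fold changes of low genes. P-values were adjusted over 16385 genes by the Benjamini-Hochberg method, with a threshold of 0.05. Single values were compared by two-sided exact permutation over 70 arrangements. The fit was tested on simulated data. In genes with a single annotated transcript, 97.5 to 98.2% of low RPKM values times length were whole multiples (within 0.1) of 1 step, which gave the totals. The step depends on gene length, so reads per gene were not recovered and no count test was applied. Positions, exon overlaps and shared 50-mers came from GENCODE M21 (GRCm38).

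The named genes were the 9 members, up to 4 genes with the largest absolute fold change in each of 6 groups of the wider list, and the 3 nearest genes of Ckm, Ckmt2, Ak1 and Ckb, of which 1 is not reported here. The members, gene lists and markers were chosen with earlier results of these data known. Alternatives were other pseudocounts, filters, normalizations and variance models, and leaving out libraries.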

Additional observations from a re-analysis of the deposited data

Results flagged for a closer look

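In 74 groups of 4 values (members, ratios and named genes), 5 held a library far from the other 3, where chance flags about 1 group in 20. Ak4 measured 14.1 RPKM in AAV-Cre library 3, while the other AAV-Cre libraries had 12.6 to 12.7 RPKM. The log2 ratio of Ckmt2 to Ckm was -1.73 in AAV-Cre library 1, and -1.82 to -1.80 elsewhere in that group. Among AAV-Luc libraries, Slc16a12 measured 1.11 RPKM in library 1 (1.00 to 1.01 in the others), Adssl1 41.3 RPKM in library 2 (34.9 to 35.8) and Prkab2 22.1 RPKM in library 1 (19.6 to 19.8). Each stayed on its own side of the other group's range. For Slc16a12, where AAV-Cre reached 1.05 RPKM, the groups overlapped through other AAV-Luc libraries.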

How the results depend on the processing

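As deposited 12013 genes were called (73.3%), and 7705 with a mean of at least 5 RPKM (of 9710 tested), 7648 with quantile normalization and 7527 with centring. The split of calls was 10559 higher and 1454 lower as deposited, and 3810 and 3838 with quantile normalization. Of the 9 genes, 6 to 8 were called under each alternative, and none of the 8 tested changed direction under any. Ckmt2, Ak1, Ak4 and Slc6a8 were called under every alternative run. Ckb and Gatm were not called with centring or quantile normalization, and Gatm falls outside the filter of 5 RPKM. Besides the fits named above, without the 2 libraries of highest Myl7, an atrial gene (AAV-Cre library 3 and AAV-Luc library 2), the calls of Ckm and Ak3 ended (limma adjusted p = 0.106 and 0.0519). Of the 45 other relay genes, 25 to 31 were called. The 6 ratios did not overlap under any alternative run. With 1 library left out, 35 arrangements remain, and the smallest exact p is 0.0571. No paired analysis was possible because the columns carry no sample number and the labels pair no libraries. Ckmt1 and 6 of the 45 other relay genes were too low to be tested.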
